A study of Mus musculus with 14 samples.

Results

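The genes described here are the 49 members of the DNA replication machinery, chosen by gene symbol from the 18193 genes of the arrays and each read by its brightest probe set. They are the genes for origin recognition and licensing, the replicative helicase and its activators, the replicative polymerases, the clamp and its loader, single-strand binding, lagging strand joining and deoxynucleotide supply. All 49 were found. RNA of 4 B cell subsets, sorted from spleen, was hybridised to Affymetrix arrays, and the mice were C57Bl/Ka males. Germinal center cells came from mice 14 days after intraperitoneal immunization with 100 µg of NP-CGG in alum, aged 6 to 10 weeks (3 arrays), and were sorted as antigen-binding, PNA-positive and CD38-low. Plasma cells came 7 days after immunization with the same antigen from mice aged 5 to 9 weeks (4 arrays), and were sorted as antigen-binding, syndecan-1-positive and PNA-negative. The labels give the dose for 3 of the 4 plasma arrays. Memory cells came 10 to 12 weeks after the same immunization from mice aged 14 to 18 weeks (4 arrays), and were sorted as antigen-binding, CD38-high and negative for IgM, IgD and PNA. Naive cells came from unimmunized mice aged 4 to 8 weeks (3 arrays), and were sorted as B220-, CD23- and IgD-positive. NP-CGG is a small hapten coupled to a carrier protein, and all the sorts required the lambda light chain and removed cells with T cell, myeloid and erythroid surface markers. Age, time after immunization and subset cannot be told apart. The labels do not say that replicates came from separate animals, so p-values measure the spread between these arrays, which may be technical.

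A cell copies its genome once per division. In G1 phase the origin recognition complex, Cdc6 and Cdt1 load the MCM helicase onto DNA, and at the start of S phase the Cdc7 and Dbf4 kinase, Cdc45 and the GINS complex turn it into a moving fork. Polymerase alpha with primase starts each strand, polymerases epsilon and delta extend it behind a sliding clamp, and many of these genes are transcribed when E2F factors are released at the G1 to S transition. Germinal center B cells are known as some of the fastest dividing cells of the body, early plasma cells (plasmablasts) still divide, and naive and memory B cells are mostly at rest.

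The promoters of the members are shown because many members moved together. A window of 250 bases before to 50 bases after a transcription start was at hand for 41 of the 49 members (50 windows, RefSeq, GRCm38.p6). The letters searched were an E2F-like site, TTTCCCGC, TTTCGCGC, TTTGCCGC or TTTGGCGC, on both strands. CCAAT and TTTGAA were searched beside it, none of these motifs contains another, and overlapping matches were counted separately. Matches to the E2F-like letters are in capitals below, and only stretches with a match are shown. The first line is the whole stretch before the start of Cdc6. This loading factor was above background on no naive array and high in germinal center and plasma cells. The others are shorter stretches around the matches of Mcm5 and Pola1, which led their complexes, and of Mcm6, which had the most matches. Gins3 follows, then Orc3, whose brightest probe set was called in neither germinal center nor plasma cells, and Pold1, which moved against the rest.
Cdc6 (chr11:98907901-98908150, plus strand): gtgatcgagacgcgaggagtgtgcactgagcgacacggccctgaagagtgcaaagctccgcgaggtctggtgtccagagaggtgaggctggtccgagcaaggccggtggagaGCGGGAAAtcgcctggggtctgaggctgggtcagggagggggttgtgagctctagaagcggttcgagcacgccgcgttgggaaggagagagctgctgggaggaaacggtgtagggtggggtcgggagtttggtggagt
Mcm5 (chr8:75109340-75109383, plus strand): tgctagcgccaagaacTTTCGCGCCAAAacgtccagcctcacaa
Mcm6 (chr1:128359729-128359831, minus strand): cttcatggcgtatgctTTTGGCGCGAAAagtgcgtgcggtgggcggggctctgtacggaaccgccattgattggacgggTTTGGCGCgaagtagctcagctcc
Pola1 (chrX:93632270-93632309, minus strand): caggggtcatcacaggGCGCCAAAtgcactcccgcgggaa
Gins3 (chr8:95633502-95633541, plus strand): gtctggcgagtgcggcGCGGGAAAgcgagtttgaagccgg
Orc3 (chr4:34614960-34614999, minus strand): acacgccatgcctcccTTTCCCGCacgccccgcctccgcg
Pold1 (chr7:44548766-44548792, minus strand): ggcggcgtatcttgtgGCGGGAAAagc
The capitals of Cdc6 and of Pola1 begin 138 bases before the start, those of Pold1 39 bases after it, and those of Mcm5 hold 2 overlapping matches on opposite strands. The E2F-like letters stood in 16 of the 50 member windows (32.0%), and in 744 of all 32851 windows (2.26%). CCAAT, on both strands, stood in 52.0% of the member windows and 37.4% of all windows, and TTTGAA, on both strands, in 16% and 17.9%. The member windows had a median GC content of 61.8%, against 52.7% over all windows, and what that adds to the share of GC-rich letters was not tested. Of 30 members called higher in germinal center cells that had a window, 11 held the E2F-like letters, and of 11 members not called there, 5 held them. Other members with the largest germinal center change of their role are not shown. Of these Lig1 held the letters, and Orc6, Cdc45, Dbf4, Mcm10, Rfc4, Rpa3, Rrm2 and Pold2 did not. A match is a run of letters, not a bound site.

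Replication genes were high in germinal center and plasma cells and low in the memory and naive subsets. Set against naive cells, the germinal center had 37 of 49 members called higher (limma, adjusted p under 0.05 over all genes), where 8.37% of all genes were called higher. No member was called lower, where 11.1% of all genes were, and at an unadjusted p under 0.05 the counts were 42 higher and 0 lower, where 15.2% and 16% of all genes were. The members' median log2 fold change was 1.91, against 0.06 over all genes. In plasma against naive cells 34 members were called higher and 3 lower, where 14.2% and 16.1% of all genes were, with a median of 1.32 against 0.06 over all genes. In memory against naive cells 1 member was called higher and 10 lower, where 2.31% and 3.26% of all genes were. There the median was -0.38 for the members, -0.03 for all genes and -0.20 for bright genes, those with a mean log2 of at least 6. The members' values did not overlap between germinal center and naive arrays for 38 members, all higher in germinal center cells, where 14.9% of all genes were higher without overlap. Between plasma and naive arrays 36 members were higher without overlap and 4 lower, where 20.3% and 18.8% of all genes were. These comparisons share the naive arrays.

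**Figure D1:**
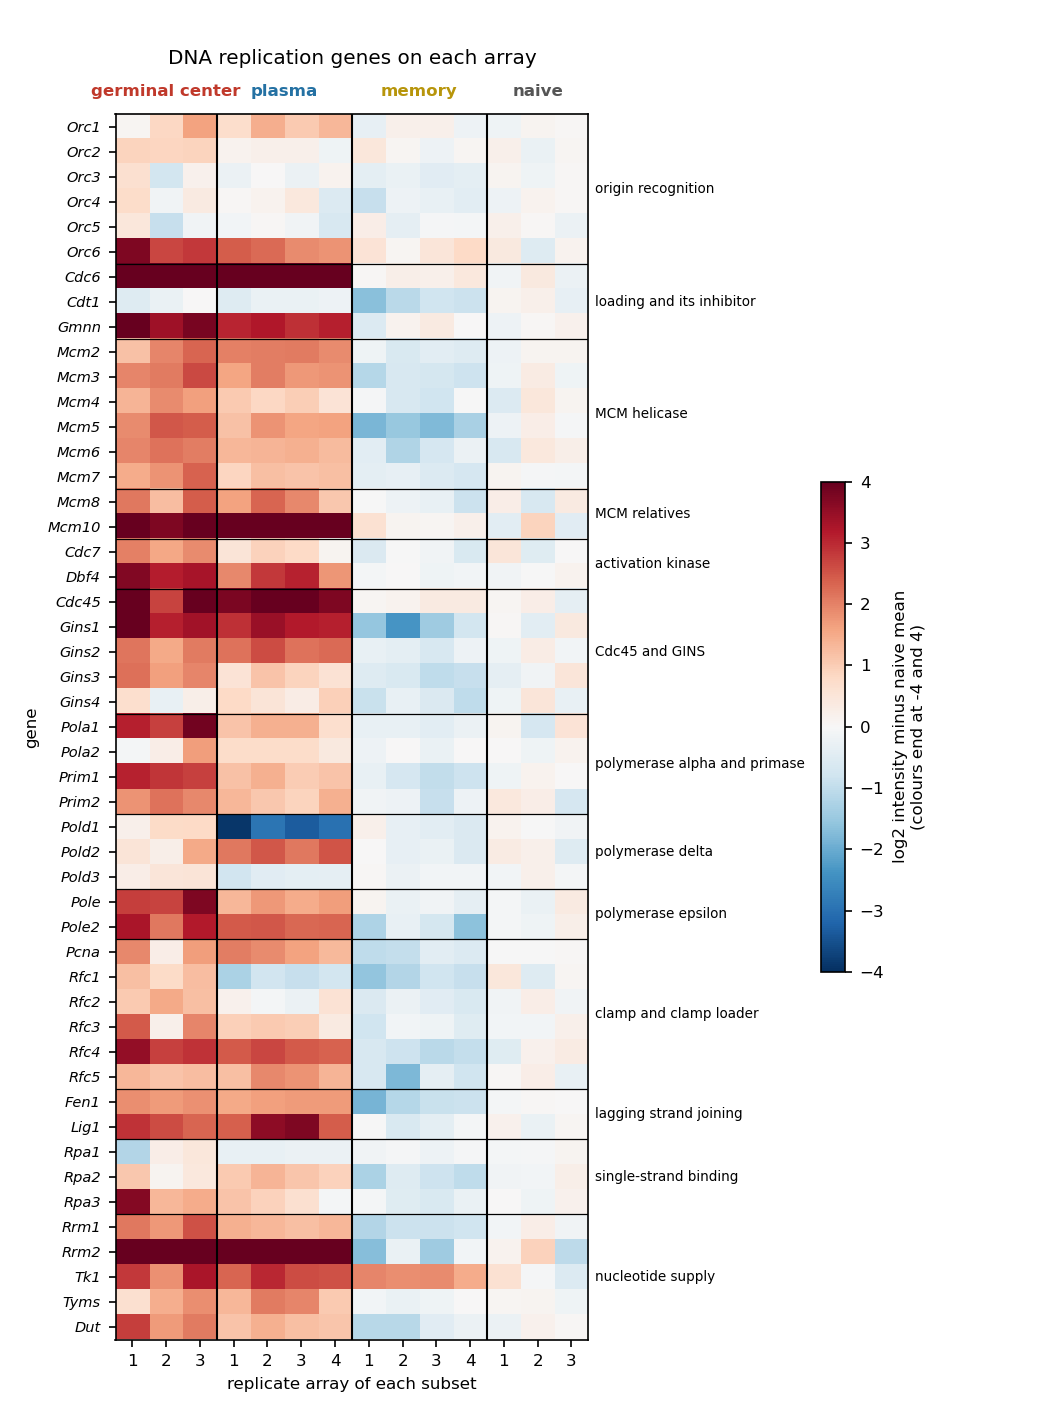
Each row is a member, grouped by role, and each column an array of germinal center, plasma, memory or naive cells. Colour is the log2 intensity minus the mean of the naive arrays, with red higher and blue lower. Cdc6, Mcm10, Rrm2 and Cdc45 are dark red on the germinal center and plasma arrays, Pold1 is dark blue on the plasma arrays alone, and Mcm5 and Gins1 are blue on the memory arrays.

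Ranked by subset means, germinal center cells were the highest subset for 31 of 49 members, where they were highest for 31.6% of all genes. Plasma cells were highest for 15 members (33.1% of all genes), naive cells for 3 (20.9%) and memory cells for 0 (14.4%). Memory cells were the lowest subset for 39 of 49 members, where they were lowest for 30.5% of all genes, and naive cells for 6 members (25.9% of all genes). In bulk RNA, fewer dividing cells in a sort and less RNA per cell cannot be told apart. Marker lists of the immunized subsets fitted the labels. Of the germinal center markers analysed, 6 of 6 were called higher in their own subset than in naive cells. So were 7 of 7 plasma markers and 5 of 5 memory markers. The list of naive and mature B markers hardly separated memory from naive cells. Plasma cells had 6 of its 6 measured genes called lower than naive cells, germinal center cells 4 and memory cells 1. Its summed intensity was 23260 to 25033 on memory arrays and 22530 to 25484 on naive arrays. Of 7 markers of dividing cells, 7 were called higher in germinal center and 7 in plasma cells, and 1, Mki67, in memory cells, all against naive cells. The summed intensity of 7 erythroid genes was 72.1 to 75.2 on plasma arrays and 64.4 to 91.0 on the others, and Hba-a1, Alas2, Epb42 and Gata1 were above background on no array. The summed intensity of 8 myeloid genes was 113 to 256 on plasma arrays, 118 to 129.9 on germinal center arrays, 106 to 115 on memory arrays and 121 to 148 on naive arrays. Of these 8, Csf1r (1.30), Lyz2 (1.33) and Cd68 (1.33) were called higher and Adgre1 (-0.88) lower in plasma than in naive cells (log2), all 4 were above background on all plasma arrays, and Itgam, S100a8, S100a9 and Cd14 were above it on no array. The summed intensity of 7 T cell genes was 819.6 to 1081 on plasma arrays and 96.6 to 120.1 on the others. Cd28, which plasma cells also use, made up most of it (777, 711, 786 and 963 in plasma cells). Besides Cd28, Cd3e (0.70) and Cd8a (0.60) were called higher in plasma than in naive cells (log2). Of the 7 genes 5 were above background on all plasma arrays, Cd3d on 1 of 4 and Cd3g on none. The part of other cells in the plasma results was not tested.

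Arrays differed within a subset. Replicate 2 of the germinal center arrays was the lowest of the 3 for 31 of 49 members, with a median deviation of -0.30 on the log2 scale for the members and -0.15 for bright genes. Its ratio of 3' to middle actin signal, a measure of RNA length, was 17.6, against 10.1 and 6.11 on the other germinal center arrays and 4.39 to 5.30 on naive arrays. The same ratio for Gapdh was 10.9 there, within the naive range, against 9.09 and 8.23 on the other germinal center arrays and 9.44 to 12.0 on naive arrays. The part of replicate 2 in the results was not tested beyond leaving it out, which gave 38 members higher in germinal center than in naive cells and 21 called between plasma and germinal center cells. Adding the actin ratio to the fit gave 34 and 17. Every array detected most members, with 45 to 49 of the 49 above background, the brightest bacterial control not spiked in (intensity 10.96 to 16.1).

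Origin recognition genes moved unevenly, and Orc6 had the highest fold changes among their brightest probe sets. The complex of Orc1 to Orc6 marks origins and is the base on which the helicase is loaded. Of its 6 members 2 were called higher in germinal center and 2 in plasma cells, and 0 in memory cells, all against naive cells. Orc6 had intensities of 696, 337 and 376 in germinal center cells, and 280.3, 251, 197 and 183 in plasma cells, against 76.8, 55.2, 73.7 and 90.8 in memory cells, and 69.6, 36.5 and 57.5 in naive cells. Germinal center arrays were all above plasma arrays, and both were above all memory and naive arrays. The log2 fold change was 3.08 ± 0.30, adjusted p = 3.3e-06 in germinal center and 2.09 ± 0.28, adjusted p = 3.7e-05 in plasma cells, both against naive cells. Orc5 had the lowest fold change of the complex in germinal center cells, with 139.8, 53.6 and 92.1 in germinal center cells, and 94.5, 105, 92.8 and 65.6 in plasma cells, and 122, 78.5, 97.8 and 96.3 in memory cells, and 116, 104 and 86.8 in naive cells. Its subsets overlapped throughout (-0.20 ± 0.29, adjusted p = 0.69, germinal center against naive cells). Orc2 was called higher in germinal center cells (0.88 ± 0.17, adjusted p = 0.0022) and Orc1, an ATP-binding subunit, in plasma cells (1.13 ± 0.29, adjusted p = 0.0078), each against naive cells. Orc1 in germinal center cells had 0.84 ± 0.31, adjusted p = 0.075, and its second probe set, the brighter one in these subsets but dimmer over all arrays and above background on 1 of 3 naive arrays, gave 2.05 in germinal center (adjusted p = 3.3e-04, all probe sets tested) and 2.51 in plasma cells (adjusted p = 1.3e-05). By their brightest probe sets Orc3, Orc4 and Orc5 were called in neither, with fold changes between -0.20 and 0.32. Dimmer probe sets of Orc3 gave -1.12 (adjusted p = 2.6e-04, all probe sets tested) and -0.33 (adjusted p = 0.42) in plasma against naive cells. Those of Orc2 gave 1.84 (adjusted p = 5.1e-06) and -0.92 (adjusted p = 0.08) there, against 0.09 for its brightest. Orc2's call in germinal center cells was lost with the actin ratio as a covariate (adjusted p = 0.094) and with the mean of its probe sets (0.31, adjusted p = 0.22).

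Among the loading factors, Cdc6 and the inhibitor Gmnn rose and Cdt1 did not. Cdc6, the ATPase that helps place the helicase, had intensities of 747, 679 and 783 in germinal center cells, and 754, 926, 865 and 689.8 in plasma cells, against 9.09, 10.3, 10.2 and 11.8 in memory cells, and 8.00, 11.5 and 7.48 in naive cells. Every germinal center and plasma array was far above every memory and naive array, and no naive array was above background. Cdc6 was at least 56.6-fold higher in germinal center and at least 61.9-fold higher in plasma than in naive cells (adjusted p = 6.4e-11 and 3.4e-12). Gmnn, geminin, binds Cdt1 and blocks a second loading in the same cycle. It had 4332, 2257 and 2972 in germinal center cells, and 1746, 1958, 1624 and 1829 in plasma cells, against 146, 236, 272 and 213 in memory cells, and 184, 219.6 and 239 in naive cells. Its memory and naive arrays overlapped, and its log2 fold change was 3.85 ± 0.24, adjusted p = 4.9e-08 in germinal center and 3.07 ± 0.22, adjusted p = 9.6e-08 in plasma cells, both against naive cells. Cdt1, the loading factor that geminin binds, had 2609, 3093 and 3777 in germinal center cells, and 2598, 3071, 3122 and 3224 in plasma cells, against 1172, 1779, 2142 and 2041 in memory cells, and 4035, 4299 and 2978 in naive cells. The memory arrays were the lowest, and the other subsets overlapped. Cdt1 was lower in memory than in naive cells (-1.10 ± 0.21, adjusted p = 0.006), while the germinal center value was -0.25 ± 0.22, adjusted p = 0.49. A dimmer second probe set called neither, with -1.29 in memory (adjusted p = 0.087, all probe sets tested) and -1.03 in germinal center cells (adjusted p = 0.12). Its plasma arrays were all above its germinal center arrays.

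All 6 genes of the MCM helicase rose in germinal center and in plasma cells. The ring of Mcm2 to Mcm7 unwinds the DNA at each fork. Their log2 fold changes lay between 1.64 and 2.27 in germinal center and between 0.85 and 2.01 in plasma cells, both against naive cells. Mcm5 had intensities of 2825, 4245 and 4038 in germinal center cells, and 1700.1, 2646, 2259 and 2292 in plasma cells, against 212, 264, 223 and 310.2 in memory cells, and 651, 909 and 730.3 in naive cells. By this brightest probe set the 4 subsets did not overlap, in the order germinal center, plasma, naive and memory. The fold changes against naive cells were 2.27 ± 0.21, adjusted p = 2.5e-06 in germinal center, 1.54 ± 0.20, adjusted p = 2.7e-05 in plasma and -1.60 ± 0.20, adjusted p = 2.5e-04 in memory cells. A dimmer Mcm5 probe set, above background on 3 of 4 memory arrays, gave 2.22, 2.62 and -1.27 (adjusted p = 0.0096, 0.0011 and 0.19, all probe sets tested). Its germinal center and plasma arrays overlapped. Mcm4, the smallest change in germinal center cells, had 2414, 3505 and 2969 in germinal center cells, and 1965, 1684, 1855 and 1371 in plasma cells, against 909, 598, 546 and 933 in memory cells, and 644, 1282 and 1013 in naive cells. Its memory and naive arrays overlapped, and its fold change against naive cells was 1.64 ± 0.27, adjusted p = 4.9e-04 in germinal center and 0.85 ± 0.25, adjusted p = 0.018 in plasma cells, the plasma call being lost without naive replicate 1 (0.58, adjusted p = 0.11). Mcm3 was also called lower in memory than in naive cells (-0.83 ± 0.20, adjusted p = 0.025), a call lost without naive replicate 2 (-0.65, adjusted p = 0.13) or memory replicate 1 (-0.72, adjusted p = 0.07).

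Of the MCM relatives, Mcm10 helps to activate the loaded helicase, and Mcm8 belongs to a separate helicase that acts in recombination repair. Mcm10 had intensities of 384, 213 and 579.6 in germinal center cells, and 452, 738, 594 and 469.7 in plasma cells, against 24.9, 17.3, 17.1 and 18.7 in memory cells, and 12.0, 30.0 and 11.8 in naive cells. It was above background on all memory arrays and on 1 of the 3 naive arrays, and its fold change against naive cells was 4.48 ± 0.38, adjusted p = 9.4e-07 in germinal center and 5.09 ± 0.35, adjusted p = 5.7e-08 in plasma cells. Mcm8 had 130.2, 71.2 and 164 in germinal center cells, and 92.6, 152, 116 and 63.7 in plasma cells, against 30.3, 26.2, 25.0 and 16.7 in memory cells, and 36.3, 19.8 and 39.4 in naive cells. All germinal center and plasma arrays were above all memory and naive arrays (1.92 ± 0.37, adjusted p = 0.0018, germinal center, and 1.73 ± 0.34, adjusted p = 0.0013, plasma, against naive cells).

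Both genes of the activation kinase rose in germinal center cells, and Dbf4 alone was called in plasma cells. Cdc7 is the kinase that phosphorylates the loaded helicase and Dbf4 is the subunit that activates it. Dbf4 had intensities of 472, 315 and 353 in germinal center cells, and 137, 254, 302 and 122 in plasma cells, against 33.8, 36.6, 32.1 and 33.3 in memory cells, and 32.4, 35.9 and 40.1 in naive cells. Plasma arrays lay between the germinal center arrays and the memory and naive arrays, with no overlap. Its fold change was 3.38 ± 0.29, adjusted p = 1e-06 in germinal center and 2.40 ± 0.27, adjusted p = 7.2e-06 in plasma cells, both against naive cells. Cdc7 had 684, 486 and 618 in germinal center cells, and 238, 317, 289 and 183 in plasma cells, against 111, 165, 153 and 109 in memory cells, and 236, 119 and 168 in naive cells. Plasma and naive arrays overlapped, and the fold change was 1.82 ± 0.27, adjusted p = 1.9e-04 in germinal center and 0.58 ± 0.25, adjusted p = 0.097 in plasma cells, both against naive cells.

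Cdc45 and 3 of the 4 GINS genes rose in germinal center and plasma cells. Cdc45 and GINS join the MCM ring to form the working helicase. Cdc45 had intensities of 332, 136 and 351 in germinal center cells, and 281, 382, 333 and 274 in plasma cells, against 22.1, 23.0, 26.7 and 26.3 in memory cells, and 21.8, 25.1 and 16.3 in naive cells. No germinal center or plasma array reached down to the memory and naive arrays, and the fold change was 3.60 ± 0.29, adjusted p = 7e-07 in germinal center and 3.92 ± 0.28, adjusted p = 6.4e-08 in plasma cells, both against naive cells. A dimmer second probe set of Cdc45 called neither, with 0.53 (adjusted p = 0.051, all probe sets tested) and 0.295 (adjusted p = 0.21). Gins4, the subunit with the smallest change, had 569, 288 and 419.7 in germinal center cells, and 624, 505, 442 and 685 in plasma cells, against 192, 290.0, 239 and 177 in memory cells, and 317, 495 and 289 in naive cells. Germinal center and naive arrays overlapped, and neither the germinal center (0.20 ± 0.28, adjusted p = 0.67) nor the plasma value (0.64 ± 0.26, adjusted p = 0.079) passed the test against naive cells. Gins1, Gins2 and Gins3 had 3.59, 1.91 and 1.93 in germinal center cells and 3.17, 2.30 and 0.78 in plasma cells, all against naive cells and all called. Gins3 lost its plasma call without naive replicate 1 (0.61, adjusted p = 0.078). Gins1 was lower in memory than in naive cells (-1.51 ± 0.34, adjusted p = 0.018), which was lost without naive replicate 1 (-1.48, adjusted p = 0.055) or naive replicate 3 (-1.32, adjusted p = 0.09).

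Polymerase alpha and primase were led by Pola1 and Prim1. Pola1 is the catalytic subunit that extends the primers, Pola2 its regulatory subunit, Prim1 the primase that makes the RNA primer and Prim2 the large primase subunit. Pola1 had intensities of 442, 347 and 753 in germinal center cells, and 114, 139.9, 139 and 82.8 in plasma cells, against 41.7, 41.8, 38.2 and 44.3 in memory cells, and 56.2, 32.3 and 75.8 in naive cells. Every germinal center array was above every plasma array, and every plasma array above every memory and naive array. Its fold change against naive cells was 3.24 ± 0.31, adjusted p = 3.6e-06 in germinal center and 1.17 ± 0.29, adjusted p = 0.0067 in plasma cells. Pola2 had 60.0, 76.1 and 201 in germinal center cells, and 105, 105, 105 and 82.7 in plasma cells, against 54.7, 64.4, 52.3 and 64.3 in memory cells, and 64.5, 56.2 and 69.9 in naive cells. Germinal center replicate 3 was high and replicate 1 lay among the naive arrays, and the germinal center value (0.62 ± 0.32, adjusted p = 0.21) did not pass. Prim1 rose in germinal center cells by 2.90 and in plasma cells by 1.19, and Prim2 by 1.96 and 1.19, all log2 against naive cells. Prim1 was also lower in memory than in naive cells (-0.70 ± 0.17, adjusted p = 0.023), but 5 of the 14 fits that left out 1 array did not call it, with the highest adjusted p of 0.10 without naive replicate 2.

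The genes of polymerase delta went apart, and its catalytic subunit fell in plasma cells. Polymerase delta makes most of the lagging strand, with Pold1 as its catalytic subunit and Pold2 and Pold3 as accessory subunits. Pold1 had intensities of 3286, 4863 and 4978 in germinal center cells, and 194, 381, 283 and 363 in plasma cells, against 3339, 2278, 2145 and 1926 in memory cells, and 3198, 2849 and 2598 in naive cells. Every plasma array was far below every other array. The log2 fold change of plasma against naive cells was -3.28 ± 0.24, adjusted p = 1.2e-07, and that of germinal center against naive cells 0.58 ± 0.26, adjusted p = 0.14. A dimmer second probe set for Pold1 gave -1.47 in plasma cells (adjusted p = 0.0042, all probe sets tested) and -0.27 in germinal center cells. Pold2 ran the other way, with 55.9, 45.7 and 109.6 in germinal center cells, and 168, 216, 167 and 219 in plasma cells, against 39.0, 30.9, 32.5 and 25.7 in memory cells, and 48.5, 44.1 and 27.1 in naive cells. Plasma arrays were the highest, and germinal center and naive arrays overlapped. Pold2 rose in plasma cells (2.30 ± 0.28, adjusted p = 1.4e-05) and had 0.76 ± 0.29, adjusted p = 0.092 in germinal center cells, both against naive cells. Pold3 had 368, 425 and 440.2 in germinal center cells, and 182, 226, 233 and 239 in plasma cells, against 319, 262, 286 and 287 in memory cells, and 283, 352 and 292 in naive cells. Plasma arrays were the lowest (-0.49 ± 0.13, adjusted p = 0.012, plasma against naive cells), but the call was lost without naive replicate 2 (-0.39, adjusted p = 0.06), and the most variable of its probe sets gave 0.54, adjusted p = 0.12.

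Both members of polymerase epsilon, the leading strand polymerase, rose in both subsets. Its small subunits, Pole3 and Pole4, were not members and are counted with the other replication genes below. Pole, the catalytic subunit, had intensities of 303, 292 and 592 in germinal center cells, and 113, 149, 126 and 143 in plasma cells, against 48.9, 37.2, 40.9 and 35.3 in memory cells, and 42.5, 37.0 and 57.5 in naive cells. Germinal center arrays were above plasma arrays, which were above memory and naive arrays, with no overlap (3.06 ± 0.25, adjusted p = 6.8e-07, germinal center, and 1.56 ± 0.23, adjusted p = 1.2e-04, plasma, against naive cells). Pole2, its second subunit, had 844, 382 and 799 in germinal center cells, and 489, 496, 431 and 446 in plasma cells, against 37.9, 72.7, 54.0 and 28.5 in memory cells, and 84.2, 79.3 and 104 in naive cells. Germinal center replicate 2 was below all plasma arrays, and the fold changes against naive cells were 2.85 ± 0.32, adjusted p = 1.8e-05 in germinal center and 2.39 ± 0.30, adjusted p = 2.4e-05 in plasma cells.

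The clamp and 5 clamp loader genes were all called higher in germinal center cells, while the large loader subunit Rfc1 fell in plasma cells. Pcna is the ring that holds polymerases on DNA, and Rfc1 to Rfc5 form the loader that opens it. Rfc4 had intensities of 2312, 1359 and 1514 in germinal center cells, and 1101, 1291, 1099 and 1032 in plasma cells, against 131, 114, 95.6 and 105 in memory cells, and 144, 226 and 254 in naive cells. Its 4 subsets did not overlap, with naive arrays above memory arrays, and its fold change was 3.06 ± 0.23, adjusted p = 2.6e-07 in germinal center and 2.48 ± 0.21, adjusted p = 4.8e-07 in plasma cells, both against naive cells. The lower memory value (-0.87 ± 0.21, adjusted p = 0.028, against naive cells) was not called in 5 of the 14 fits that left out 1 array, with -0.70, adjusted p = 0.14 without naive replicate 3. Rfc1 had 1797, 1338 and 1844 in germinal center cells, and 322, 457, 415 and 474 in plasma cells, against 265, 347, 449.8 and 411 in memory cells, and 1067, 548 and 818 in naive cells. Germinal center arrays were the highest, naive arrays next, and plasma and memory arrays the lowest. Against naive cells Rfc1 was higher in germinal center (1.07 ± 0.25, adjusted p = 0.0074) and lower in plasma (-0.92 ± 0.24, adjusted p = 0.0078) and memory cells (-1.12 ± 0.24, adjusted p = 0.013). A second probe set gave 1.69, -1.58 and -1.70. Without naive replicate 1 the plasma value was -0.70, adjusted p = 0.054, and the memory value -0.89, adjusted p = 0.058 without naive replicate 1 and -1.08, adjusted p = 0.054 without naive replicate 3. Pcna rose by 1.29 in germinal center cells, which was lost without germinal center replicate 1 (0.97, adjusted p = 0.068) or replicate 3 (1.09, adjusted p = 0.055), and by 1.71 in plasma cells. The small loader subunits Rfc2 and Rfc5 rose by 1.25 and 1.24 in germinal center cells, and Rfc5 by 1.57 in plasma cells, where Rfc2 had 0.11 ± 0.19, adjusted p = 0.74. Rfc3 was dim, on no memory array above background, and its rise in germinal center cells (1.54 ± 0.42, adjusted p = 0.018) was lost without germinal center replicate 1 (1.09, adjusted p = 0.077) or 3 (1.33, adjusted p = 0.061) and without naive replicate 1 (1.49, adjusted p = 0.06) or 2 (1.49, adjusted p = 0.053).

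Both genes that join lagging strand fragments rose. Lig1, the ligase that seals the fragments, had intensities of 261, 214 and 178 in germinal center cells, and 185, 426, 473 and 189.7 in plasma cells, against 34.7, 23.1, 26.97 and 33.2 in memory cells, and 40.1, 29.2 and 37.6 in naive cells. Plasma replicates 2 and 3 were far above plasma replicates 1 and 4, and all plasma arrays were above all naive arrays (2.61 ± 0.33, adjusted p = 5.1e-05, germinal center, and 3.04 ± 0.31, adjusted p = 2.9e-06, plasma, against naive cells). Fen1, the nuclease that cuts the displaced flap, had 8752, 7695 and 8421 in germinal center cells, and 6880.0, 7407, 7755 and 7702 in plasma cells, against 658, 1077, 1295 and 1317 in memory cells, and 2282, 2452 and 2436 in naive cells. Memory arrays were the lowest, below all naive arrays. The fold changes against naive cells were 1.79 ± 0.21, adjusted p = 2.1e-05 in germinal center, 1.64 ± 0.19, adjusted p = 1.3e-05 in plasma and -1.19 ± 0.19, adjusted p = 0.0022 in memory cells. A dimmer second probe set of Fen1, above background on 1 of 4 memory arrays, gave 1.39, 2.66 and -0.64 (adjusted p = 0.047, 2.3e-04 and 0.50, all probe sets tested).

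The genes of RPA, the complex that coats single-stranded DNA, were called in different comparisons. Rpa1, its large subunit, had intensities of 2267, 6088 and 6895 in germinal center cells, and 4134, 4128, 4333 and 4366 in plasma cells, against 4650.1, 4939, 4388 and 4881 in memory cells, and 4826, 4949.7 and 5519 in naive cells. Apart from germinal center replicate 1, which was the lowest of all arrays, the arrays lay between 4128 and 6895, and Rpa1 was called in no comparison (-0.16 ± 0.29, adjusted p = 0.77, germinal center against naive cells). Rpa3, its small subunit, had 811, 157 and 176 in germinal center cells, and 138, 119.6, 97.5 and 59.9 in plasma cells, against 59.9, 45.4, 41.8 and 52.4 in memory cells, and 63.1, 55.8 and 71.2 in naive cells. Germinal center replicate 1 was far above the other germinal center arrays, and its fold change was 2.16 ± 0.48, adjusted p = 0.0049 in germinal center and 0.65 ± 0.45, adjusted p = 0.31 in plasma cells, both against naive cells. Without germinal center replicate 1 the germinal center value was 1.40, adjusted p = 0.0034. Rpa2, the middle subunit, was higher in plasma (1.11 ± 0.22, adjusted p = 0.0014) and lower in memory cells (-0.91 ± 0.22, adjusted p = 0.029) than in naive cells, the memory call being lost without any 1 of naive replicates 2 and 3 and memory replicates 1 and 4 (highest adjusted p = 0.13).

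All 5 members for deoxynucleotide supply rose in germinal center and plasma cells, and Tk1 alone of the 49 members was called higher in memory cells. Further nucleotide supply genes outside the members were mixed, as counted below. Rrm1 and Rrm2 form ribonucleotide reductase, which makes deoxynucleotides, Tk1 salvages thymidine, Tyms makes thymidylate and Dut removes dUTP. Rrm2, the subunit made in S phase, had intensities of 3042, 3961 and 4197 in germinal center cells, and 5103, 5031, 5837 and 4437 in plasma cells, against 15.8, 42.8, 19.5 and 48.1 in memory cells, and 57.3, 97.7 and 25.0 in naive cells. Plasma arrays were above germinal center arrays, and memory and naive arrays overlapped. Its fold change was 6.15 ± 0.46, adjusted p = 2.5e-07 in germinal center and 6.61 ± 0.43, adjusted p = 2.7e-08 in plasma cells, both against naive cells. Tk1 had 111, 55.1 and 150.3 in germinal center cells, and 78.0, 125, 95.4 and 91.0 in plasma cells, against 59.9, 56.1, 57.8 and 44.0 in memory cells, and 23.8, 14.9 and 10.7 in naive cells. Naive arrays were the lowest, 2 of 3 above background, and memory arrays stood between them and most germinal center and plasma arrays. Against naive cells the fold change was 2.64 ± 0.34, adjusted p = 5.1e-05 in germinal center, 2.62 ± 0.31, adjusted p = 1.4e-05 in plasma and 1.79 ± 0.31, adjusted p = 0.0037 in memory cells, the last called in all fits run. Tyms was dim, with 13.1, 23.1 and 30.4 in germinal center cells, and 21.1, 35.3, 32.6 and 17.3 in plasma cells, against 7.83, 6.94, 7.43 and 8.53 in memory cells, and 8.79, 9.04 and 7.37 in naive cells. No memory or naive array was above background, and Tyms was at least 1.61-fold higher in germinal center and at least 1.96-fold higher in plasma than in naive cells (adjusted p = 0.0049 and 3.9e-04). Rrm1 and Dut rose by 2.14 and 2.18 in germinal center cells and by 1.32 and 1.22 in plasma cells, and Rrm1 was lower in memory than in naive cells in all fits run (-0.92 ± 0.18, adjusted p = 0.0067).

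**Figure D2:**
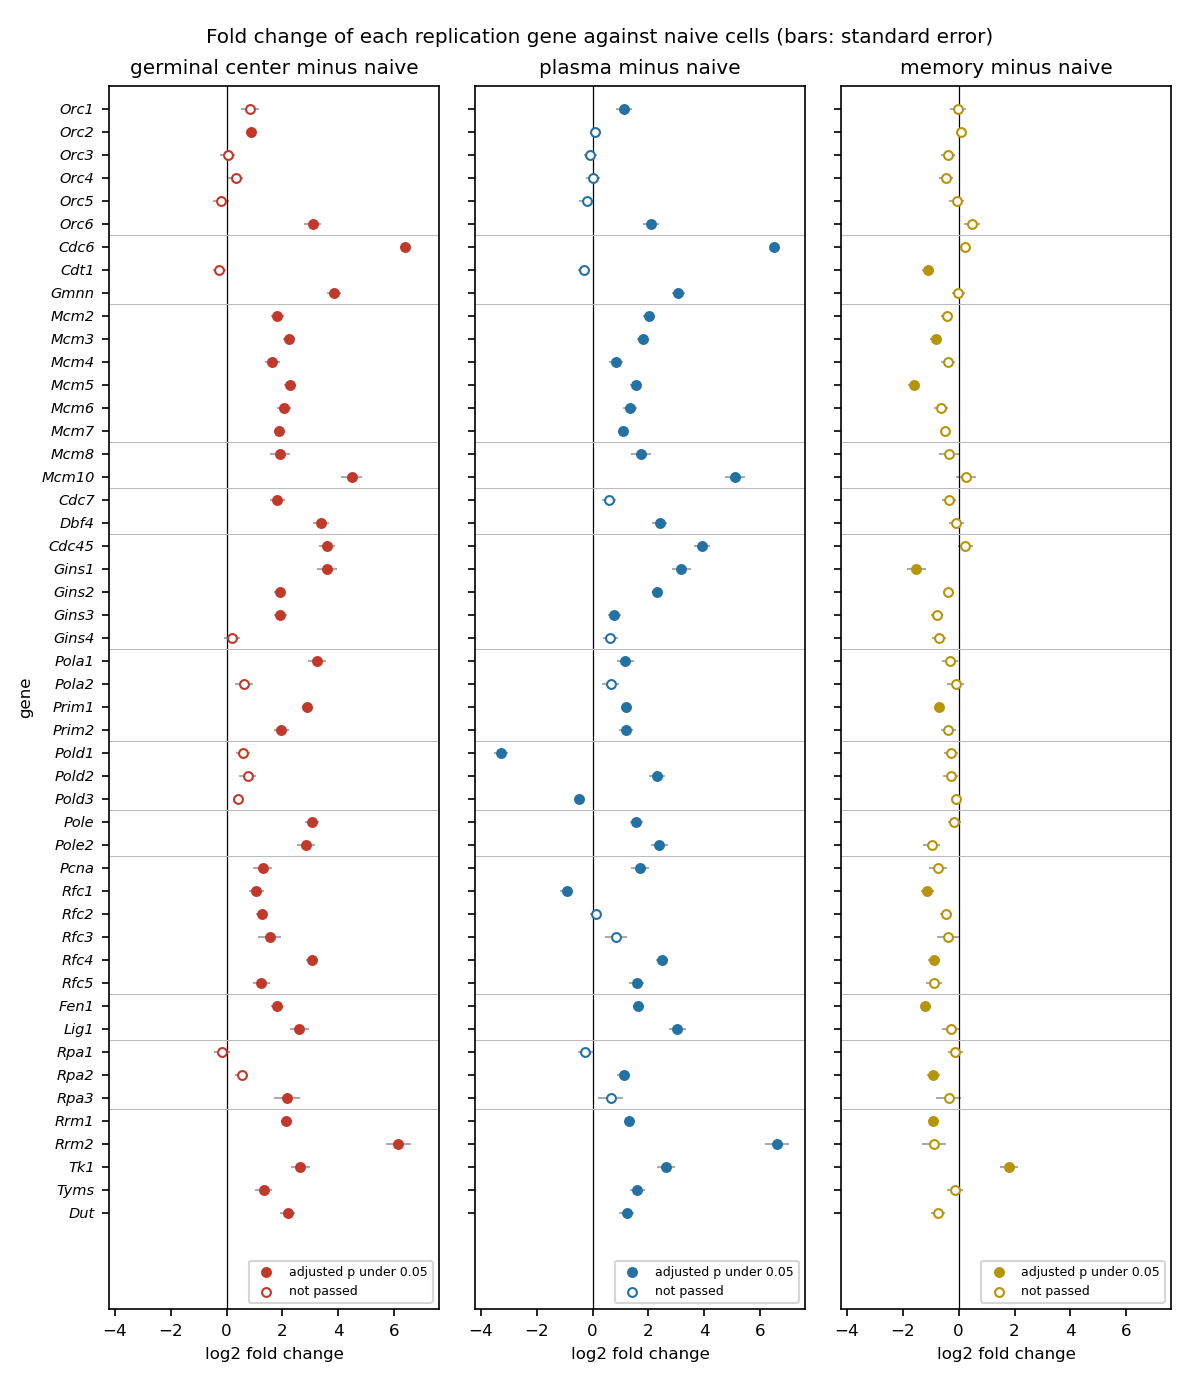
Points are log2 fold changes against naive cells with standard errors as bars, from left to right for germinal center, plasma and memory cells. Filled points passed an adjusted p under 0.05. In germinal center cells 37 members are filled, all right of 0, and in plasma cells 34 lie right of 0 and Pold1, Pold3 and Rfc1 left. In memory cells most points lie just left of 0, and Tk1 alone is filled on the right.

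**Figure D3:**
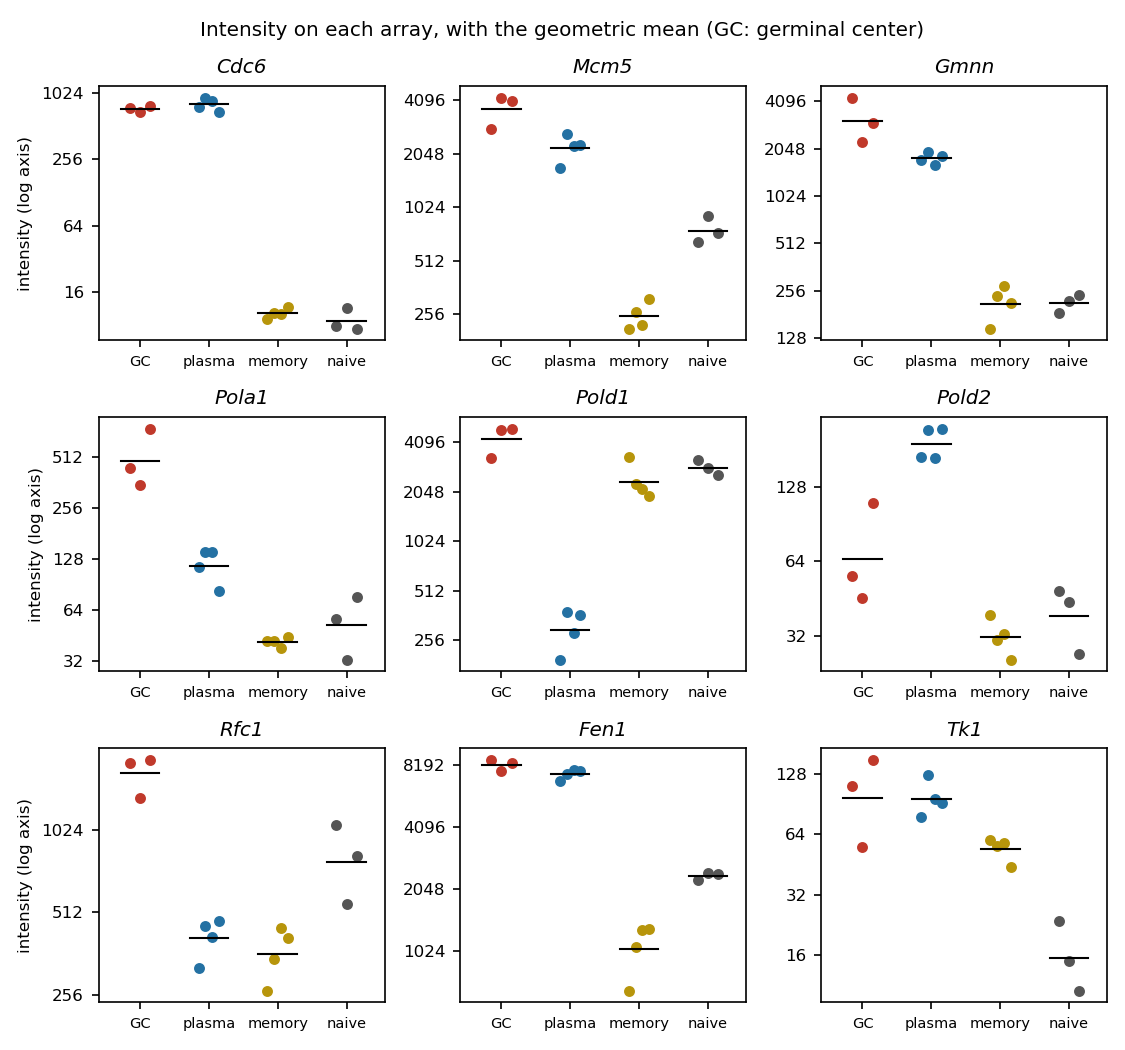
Each point is the intensity of 1 array on a log axis, and each line the geometric mean of a subset, for 9 members. Cdc6 is high in germinal center and plasma cells, Pola1 in plasma cells lies below all germinal center arrays, Pold1 is low in plasma cells alone, and Tk1 in memory cells lies above the naive arrays.

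Many replication genes were lower in plasma than in germinal center cells. Of 49 members 21 were called lower and 1 higher in plasma than in germinal center cells, where 12.6% and 11.2% of all genes were, and the members' median was -0.43 against -0.02 over all genes. Without overlap between arrays 22 were lower and 3 higher, where 15.1% and 13.6% of all genes were. The lowest values were in Pold1 (-3.87 ± 0.24, adjusted p = 3.2e-08), Pola1 (-2.07 ± 0.29, adjusted p = 9e-05), Rfc1 (-1.99 ± 0.24, adjusted p = 1.7e-05), Prim1 (-1.71 ± 0.17, adjusted p = 2.4e-06), Rpa3 (-1.51 ± 0.45, adjusted p = 0.023) and Pole (-1.50 ± 0.23, adjusted p = 2.1e-04). Pold2 was the 1 member called higher (1.54 ± 0.28, adjusted p = 6.8e-04). By role and brightest probe set, polymerase alpha and primase had 3 of 4 members lower and the kinase 2 of 2. The MCM helicase had 4 of 6 lower, and the clamp and its loader 2 of 6. Other probe sets of the 4 MCM genes differed, as given below. Cdc6 (0.13 ± 0.16, adjusted p = 0.66), Cdc45 (0.33 ± 0.28, adjusted p = 0.47), Mcm2 (0.19 ± 0.21, adjusted p = 0.61) and Pcna (0.42 ± 0.32, adjusted p = 0.42) did not pass. Mki67, the marker of dividing cells, had 5748, 5569, 6522 and 5467 in plasma cells, and 7225, 5180.3 and 8589 in germinal center cells, with overlapping arrays (-0.24 ± 0.34, adjusted p = 0.70). Of the 22 calls 9 held in all fits run. Those of Orc6, Gmnn, Dbf4 and Dut were lost without germinal center replicate 1 (-0.67, adjusted p = 0.091 for Orc6, -0.54, adjusted p = 0.10 for Gmnn, -0.82, adjusted p = 0.068 for Dbf4 and -0.67, adjusted p = 0.064 for Dut), as was that of Rpa3, whose value there was -0.75, adjusted p = 0.066, and -1.27, adjusted p = 0.071 without plasma replicate 4. Mcm5 was not called without germinal center replicate 2 (-0.62, adjusted p = 0.062) or 3 (-0.66, adjusted p = 0.055). Mcm4, Mcm6 and Prim2 stood near the threshold and were not called in 5, 10 and 7 of the 14 fits that left out 1 array, with the highest adjusted p of 0.13, 0.13 and 0.13, each without germinal center replicate 2.

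Probe sets of the same gene differed most in this comparison. With the most variable probe set of each gene the members' median was -0.01, and Fen1, Cdt1 and Orc2 were called higher in plasma than in germinal center cells (1.27, adjusted p = 0.039, 1.43, adjusted p = 0.014 and 0.76, adjusted p = 0.0092). The values of Mcm5, Mcm6 and Mcm7 were then 0.40, 0.22 and 0.53, none of them called. For Mcm4 a second probe set gave -0.18 (adjusted p = 0.76, all probe sets tested). Further probe sets of Mcm7 gave -0.55 (adjusted p = 0.14) and -1.14 (adjusted p = 9.7e-04) in the same fit. A second probe set of Rrm2 gave 2.70 (adjusted p = 7e-08, all probe sets tested), against 0.46 ± 0.43, adjusted p = 0.52 for its brightest. Of 14 other probe sets above background on all arrays whose gene's brightest probe set was called, 11 had the same sign.

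**Figure D4:**
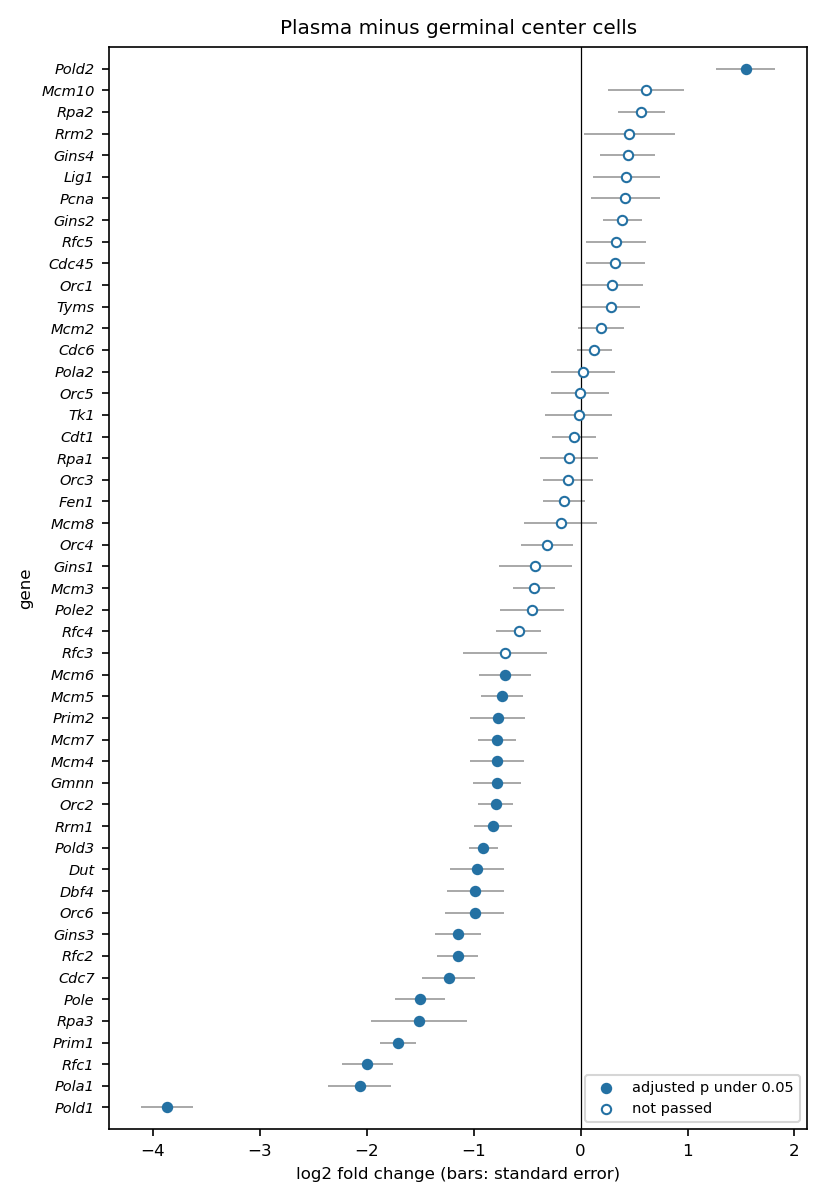
Points are log2 fold changes of plasma against germinal center cells with standard errors as bars, sorted by size, and filled points passed an adjusted p under 0.05. Pold2 at the top is the 1 filled point right of 0, and 21 filled points lie left of it, down to Pold1 at -3.87.

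Memory cells lay at or below naive cells for most members. The mean was lower in memory than in naive cells for 43 of 49 members (87.8%), against 56.2% of all genes and 67.3% of bright genes. Without overlap between arrays 19 members were lower and 1 higher, where 11.3% and 6.15% of all genes were. By their brightest probe sets Mcm5 (-1.60), Gins1 (-1.51), Fen1 (-1.19), Rfc1 (-1.12) and Cdt1 (-1.10) had the lowest log2 values among those called. Dimmer probe sets of Mcm5, Fen1 and Cdt1 did not call them, as given above. Mki67 ran the other way, with 214, 282, 197 and 230.2 in memory cells, and 9.21, 32.9 and 10.2 in naive cells (3.97 ± 0.34, adjusted p = 9.1e-06). Its values in naive replicates 1 and 3 were below background (14.2 and 13.2), which limits this fold change. Of the 11 calls between memory and naive cells 2, Rrm1 and Tk1, held in all fits run, and the number called was 6 without naive replicate 3, 7 without naive replicate 2 and 14 without germinal center replicate 2. Against germinal center cells 44 members were lower in memory cells and 0 higher, where 11.5% and 11% of all genes were, and 46 lower and 0 higher at an unadjusted p under 0.05, by limma, where 18.3% and 14.5% of all genes were. Among members above background on all arrays of both subsets, Rrm2 had the lowest value (-7.03 ± 0.43, adjusted p = 2.9e-08). Cdc6 and Gins1, also called lower, were above background on 1 and 3 of the 4 memory arrays, and Orc3, Orc5, Pola2, Rpa1 and Tk1 were not called. In plasma against memory cells 39 members were higher and 2, Pold1 (-3.00 ± 0.23, adjusted p = 1.1e-07) and Pold3 (-0.40 ± 0.12, adjusted p = 0.023), lower, where 17.2% and 16% of all genes were. Without overlap between arrays 40 members were higher and 3 lower, where 19.9% and 16.6% of all genes were. Pold3's call was lost without plasma replicate 1 (-0.31, adjusted p = 0.08) or memory replicate 1 (-0.35, adjusted p = 0.069).

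Other genes of replication, taken from a list of 52 of which 49 were measured, were called as follows. Germinal center against naive cells gave 30 higher and 2 lower, plasma against naive cells 25 and 6, and memory against naive cells 0 and 5. The shares of all genes called higher and lower there were 8.37% and 11.1%, 14.2% and 16.1%, and 2.31% and 3.26%. Top2a, the topoisomerase that untangles copied DNA, had 2945, 1745 and 3859 in germinal center cells, and 1658, 1913, 2144 and 1633 in plasma cells, against 28.3, 104, 63.2 and 72.4 in memory cells, and 43.8, 44.9 and 40.5 in naive cells. All germinal center and plasma arrays were above the rest (5.98 ± 0.37, adjusted p = 4.9e-08 and 5.41 ± 0.35, adjusted p = 2.7e-08 against naive cells). Exo1, a nuclease of mismatch repair, and Dscc1, part of an alternative clamp loader, followed with 4.37 and 4.07 in germinal center cells. Against naive cells, 7 of 7 chromatin copying genes measured were higher in germinal center and 5 of 7 in plasma cells. Of 15 further nucleotide supply genes 8 were higher and 1 lower in germinal center, and 5 and 2 in plasma cells. For 18 fork and origin regulators these counts were 12 and 1, and 11 and 2. For 3 small polymerase subunits they were 0 and 0, and 1 and 1. For 3 topoisomerases they were 2 and 0, and 2 and 1, and for 3 ribonucleotide removal genes 1 and 0 in both. Tk2, the mitochondrial thymidine kinase, ran against Tk1, with 26.5, 13.0 and 37.3 in germinal center cells, and 8.44, 10.97, 8.38 and 9.38 in plasma cells, against 193, 242, 303 and 253 in memory cells, and 361, 233 and 172 in naive cells. Germinal center and plasma arrays were below all memory and naive arrays, and no plasma array was above background. Tk2 was at least 17.8-fold lower in plasma than in naive cells (adjusted p = 3.4e-08), and its log2 value in germinal center cells was -3.38 ± 0.33, adjusted p = 4.3e-06. Rrm2b, the reductase subunit used outside S phase, had 943, 589 and 929 in germinal center cells, and 195, 143, 218 and 72.0 in plasma cells, against 478, 515, 508 and 625 in memory cells, and 622, 464 and 634 in naive cells. Plasma arrays were the lowest (-1.97 ± 0.31, adjusted p = 1.8e-04, plasma against naive cells). Timeless, which protects forks, was the lowest of the list in memory cells, with 38.8, 46.3, 51.5 and 61.2 in memory cells, and 187, 156 and 172 in naive cells. Every memory array was below every naive array (-1.81 ± 0.21, adjusted p = 1.6e-04), and against naive cells Timeless rose in germinal center (1.15 ± 0.23) and plasma cells (1.27 ± 0.21).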

How the data were processed

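The authors deposited an intensity for each probe set on each array, made with RMA, per the submitters' processing notes, which give no version; the scanner settings and chip definition are not given in the sources used here. The values are linear and were taken to log2 as they stand, without a pseudocount or rescaling. Of 45101 probe sets 34945 carry a single gene symbol in the platform annotation, and 932 with several were not used, which leaves Tyms to a dim probe set. Each gene was read by its probe set with the highest mean log2 over the 14 arrays. For 12 members, among them all 6 MCM helicase genes, that probe set has the suffix _x_at or _s_at. What this adds to their values was not tested. All 18193 genes entered a linear model in limma 3.58.1 (R 4.3.3) with a mean for each subset, which leaves 10 residual degrees of freedom, followed by eBayes, two-sided tests and Benjamini-Hochberg adjustment within each of 6 contrasts. Fold changes are log2 values ± standard error. Where the lower subset was above background on no array, the fold is a bound against the brightest of 27 unspiked bacterial controls. Such bounds are means of log2 values over the arrays. Bright genes are the 6116 with a mean log2 of at least 6. The number of arrays limits the precision. The members and the lists were chosen with earlier results of these data known. Array values are given in each role for the members with the largest and smallest change in germinal center against naive cells and for members against the majority, and Gmnn was added after its values were seen. Of the other replication genes the 3 highest and 3 lowest called against naive cells could be named. The fit was tested on simulated data. Alternatives covered normalization, dim genes, the choice of probe set, the variance model, the arrays, the threshold and the replicate number. The fit of all probe sets was added after the data were seen. Promoter windows came from RefSeq (GRCm38.p6). Figures were drawn with matplotlib 3.10.9 in Python 3.11.15.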

Additional observations from a re-analysis of the deposited data

Results flagged for a closer look

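In groups of 4 arrays a sample far from its fellows was looked for in each member, over 98 groups, and chance alone marks about 1 group in 20. Pola2 in plasma cells was marked because replicate 4 had an intensity of 82.7, against 105 to 105 on the other plasma arrays. Prim2 in memory cells was marked because replicate 3 had 75.1, against 122 to 128 on the other memory arrays.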

How the results depend on the processing

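The counts of members called in germinal center and plasma cells against naive cells (37 each), in memory against germinal center cells (44) and in plasma against memory cells (41) stayed within 1.5 times under each alternative. Leaving out 1 array gave 35 to 38, 35 to 38, 39 to 44 and 37 to 43. The count in memory against naive cells (11) was 7 under quantile normalization, 7 with arrays centred on bright genes, 7 with a floor of 16, 6 with the most variable probe set and 5 at an adjusted p under 0.01, and 6 to 14 without 1 array. The count in plasma against germinal center cells (22) was 13 at an adjusted p under 0.01, and 17 to 23 without 1 array. The replicate numbers do not pair the samples (6 of 19 same-number pairs correlated above 0.1, range -0.32 to 0.25, and 3 of 14 arrays correlated best with their own number). With the replicate block the counts were 38, 37, 9, 20, 42 and 40, for the contrasts in the order germinal center, plasma and memory against naive, plasma and memory against germinal center, and plasma against memory cells. Centring on bright genes moved all genes by 0.18, 0.24 and 0.18 for the 3 contrasts with naive cells in that order, and centring on the median by -0.14 and -0.16 in the first pair. No scaling turned a called member round. Directions turned in plasma against germinal center cells for Orc2 with the mean of its probe sets (0.029), and with the most variable probe set for Orc2 (0.76), Cdt1 (1.43), Mcm5 (0.40), Mcm6 (0.22), Mcm7 (0.53) and Fen1 (1.27). In plasma against memory cells they turned for Orc2 (0.60 with the mean, 1.92 with the most variable probe set), Orc3 (-0.48) and Pold3 (1.01), and in plasma against naive cells for Pold3 (0.54), with the most variable probe set. Rpa1 in memory against germinal center cells was -0.46 to 0.34 without 1 array. The causes were not tested. Of the calls 29 of 37, 32 of 37, 2 of 11, 9 of 22, 34 of 44 and 36 of 41 were kept in every fit, in the order given for the block. Signal near background limits Cdc6, Tyms, Rfc3, Mcm10 and Tk1 in memory and naive cells, and Mki67 in naive cells.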
